A study of Mus musculus with 6 samples.

Results

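Keratins are the intermediate filament proteins of epithelial cells, and 9 keratin genes were followed here by their symbols: Krt7, Krt8, Krt18, Krt19, Krt20, Krt23, Krt80, Krt5 and Krt14. They are 9 of the 30315 genes in the table, and 9 of the 40 keratin genes listed in it. The samples were mouse primary renal tubular epithelial cells (TECs) from C57BL/6 mice, a culture of cells taken from the tubules of the kidney. One group of 3 libraries came from TECs transfected with siSox9, a small interfering RNA against Sox9, a transcription factor of progenitor and repairing epithelial cells. The other group of 3 came from TECs transfected with the control siRNA siNC. Both groups went through hypoxia/reoxygenation (H/R), a culture model of ischemia, which began 12 h after transfection and had 6 h at 1.0% O2 without glucose and then 18 h of reoxygenation. No library from TECs without H/R was analysed here, so every value is a level after H/R. Nothing in the labels says whether the replicates were separate cell isolations, so the p-values measure the spread between these libraries, which may be technical.

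A keratin filament is built from pairs of 1 type I keratin and 1 type II keratin, and each epithelium makes its own set of pairs. Krt8 (type II) and Krt18 (type I) are the pair of simple, single-layered epithelia, the kidney tubule included. Krt7 (type II) and Krt19 (type I) are found in ducts and other simple epithelia, Krt20 is a type I keratin of the gut and the urothelium, and Krt23 and Krt80 are less abundant type I and type II keratins. Krt5 (type II) and Krt14 (type I) form the pair of basal cells in layered epithelia such as the epidermis.

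Levels were given as FPKM (fragments scaled to exon length and library depth), with 23893197 to 25725743 reads recovered per library. Sox9 fell to 34.2% of the siNC level, from 25.96 ± 0.496 to 8.87 ± 0.236 FPKM (SD, n = 3), with an adjusted p of 7.03e-06 in limma. Differences were tested with limma on log2(FPKM + 1) over 12009 genes that averaged 1 FPKM or more, at a Benjamini-Hochberg adjusted p under 0.05, and a gene past that threshold is referred to as called. Among these genes 30.4% were called, 12.8% higher and 17.6% lower with siSox9, that is 1532 higher and 2118 lower, and 46.3% had groups that did not overlap. The split became 1959 higher and 1765 lower once each library was centred on its median. The siNC library of replicate 1 stood apart from the other siNC libraries (mean chi-square per gene of 6.62 and 6.79, against 2.66 between replicates 2 and 3). As markers of tubule epithelium, Epcam, Cdh1 and Pax8 were present in every library. Slc34a1 and Slc5a2, transporters that define the proximal tubule, were at or near 0 in both groups, while the proximal tubule receptors Lrp2 and Cubn were low, at 2.06 to 2.58 FPKM and 0.419 to 0.515 FPKM.

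Krt7 was the 1 member called. It rose with siSox9 to 128% of the siNC level, while Krt8, Krt18, Krt19, Krt20 and Krt80 were not called. Krt5, Krt14 and Krt23 lay under 1 FPKM and were not tested at that minimum. So 1 of the 6 members tested was called, beside 30.4% of all genes tested. The groups of 2 members, Krt7 and Krt19, did not overlap, beside 46.3% of all genes. The median log2 difference of the 6 members was 0.01, and that of all genes tested was -0.01.

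**Figure D1:**
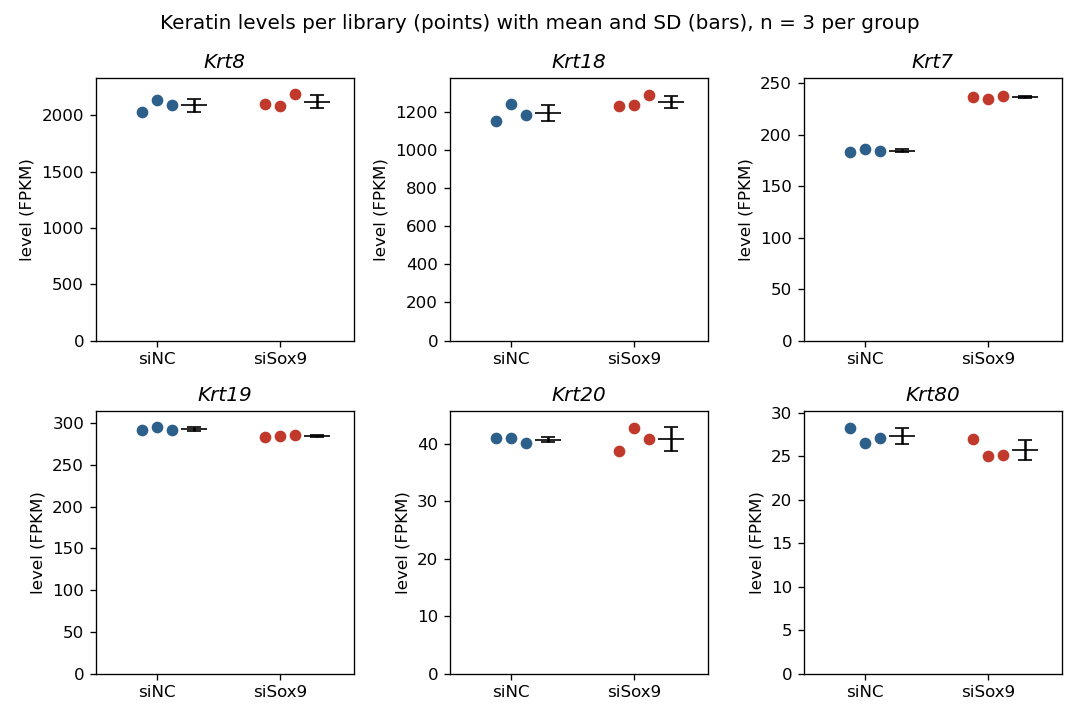
Level in FPKM (vertical axes, each from 0) of the 6 keratins that averaged 1 FPKM or more, with 1 point per library and the mean and SD of each group beside the points. The 3 siSox9 libraries lie between 235 and 237 FPKM for Krt7, above the siNC libraries at 183 to 186 FPKM, and the points of Krt8, Krt18, Krt20 and Krt80 overlap between the groups.

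The promoters of Krt7, the member called higher, and of Krt8 and Krt18, the most abundant pair, are printed from RefSeq on GRCm38.p6. Each has 250 bases before and 50 bases from the RefSeq start, read 5′ to 3′ on the strand of the gene. RefSeq promoters were at hand for 7 of the 9 members. Capitals mark matches, on either strand, to a GC box (GGGCGG) or a TATA box (TATAAA). Krt7 lies on the + strand (chr15:101412153-101412452), Krt8 on the - strand (chr15:102004293-102004592) and Krt18 on the + strand (chr15:102027966-102028265).
Krt7: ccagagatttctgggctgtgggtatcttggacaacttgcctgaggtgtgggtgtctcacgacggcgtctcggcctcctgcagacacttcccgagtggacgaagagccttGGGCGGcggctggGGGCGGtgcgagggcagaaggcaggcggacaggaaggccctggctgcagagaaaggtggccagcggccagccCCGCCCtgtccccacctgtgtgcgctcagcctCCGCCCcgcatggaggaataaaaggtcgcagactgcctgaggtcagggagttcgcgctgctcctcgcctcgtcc
Krt8: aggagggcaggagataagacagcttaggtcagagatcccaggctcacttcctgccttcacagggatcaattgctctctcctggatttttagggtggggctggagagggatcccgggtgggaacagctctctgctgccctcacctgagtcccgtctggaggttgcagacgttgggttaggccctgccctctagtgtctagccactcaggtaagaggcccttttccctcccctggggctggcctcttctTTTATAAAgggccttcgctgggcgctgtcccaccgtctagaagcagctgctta
Krt18: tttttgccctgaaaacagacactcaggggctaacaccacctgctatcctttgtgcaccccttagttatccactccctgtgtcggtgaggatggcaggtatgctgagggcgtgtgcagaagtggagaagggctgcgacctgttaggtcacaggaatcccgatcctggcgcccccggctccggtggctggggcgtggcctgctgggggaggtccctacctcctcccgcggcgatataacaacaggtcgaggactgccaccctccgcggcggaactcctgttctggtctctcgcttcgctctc

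The Krt7 promoter held 4 GC boxes, which begin 141, 128, 56 and 24 bases before the start, and no TATA box by these letters. Its GC content was 66.3%, against 58.0% for Krt8, 61.3% for Krt18 and a median of 52.7% over 32851 promoters of the same length, of which 35.7% held a GC box. The Krt8 promoter held 2 overlapping TATAAA matches at the start itself, 1 on each strand, and the Krt18 promoter held none of the motifs searched. TATAAA was found in 13.6% of all promoters. The core letters of SOX factor sites, ACAAT, were absent from these 3 windows and present in 31.0% of all promoters, and AP-1 letters (TGANTCA) were absent from the 3 windows and present in 7.8%. Both motifs were searched on both strands. Among the other members with a promoter, Krt20 held 1 TATAAA that begins 29 bases before the start, Krt23 held 1 ACAAT that begins 90 bases before it, and Krt5 and Krt14 held no match. These matches are descriptions of letters and not of bound sites. The Krt7 window begins at 101412153, inside the gene whose reads were counted, which begins at 101411043. The windows of Krt8 and Krt18 span the starts of their counted genes.

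Of the type II keratins, Krt8 was the most abundant member and ranked 7 by mean FPKM among the 12009 genes. Its GRCm38 position in the files is chromosome 15, 101996711 to 102004342, on the - strand. Its level was 2098, 2081 and 2189.5 FPKM in siSox9 replicates 1 to 3 and 2029, 2141 and 2097 FPKM in siNC replicates 1 to 3. The groups overlapped, and the means of 2123 ± 58.2 and 2089 ± 56.6 FPKM (SD, n = 3) were 1.02-fold apart. The log2 difference was 0.02 (SE 0.04, adjusted p = 0.684 in limma), with a 95% interval from -0.07 to 0.11, that is from 4.57% lower to 8.23% higher on the log2(FPKM + 1) scale. Without siNC replicate 1 the log2 difference was 0.0024, and without siSox9 replicate 3 it was 0.0009. Of the 50-base stretches in Krt8 transcripts, 29.7% occur, on either strand, in Krt8-ps or Gm36026 as well. Gm36026 is a gene of the opposite strand that overlaps Krt8 itself. Krt8-ps was listed at 5.22 to 7.75 FPKM, so the files could hold some Krt8 reads under this copy.

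Krt7, on the + strand of chromosome 15 from 101411043 to 101430313, lies 566 kb from Krt8 in the cluster of type II keratins. Its level was 236, 235 and 237 FPKM in the siSox9 replicates and 183, 186 and 184 FPKM in the siNC replicates. The 6 libraries fell into 2 narrow groups with a gap of 49.1 FPKM between them, while the range within a group was at most 2.51 FPKM. The means were 236 ± 1.20 and 184 ± 1.28 FPKM (SD, n = 3). The log2 difference was 0.35 (SE 0.03, adjusted p = 0.000168 in limma), with a 95% interval from 0.30 to 0.41, which is a rise of 22.7% to 33.3%. Krt7 stayed called under every alternative tried. Among the 406 tested genes that averaged 100 FPKM or more, 103 were called higher and 13 had a larger log2 difference than Krt7.

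In reads, Krt7 took 42878, 42088 and 40003 in the siSox9 libraries and 32112, 31661 and 32284 in the siNC libraries. That is close to the reads of Krt18, which were 44322, 44044 and 43218 with siSox9 and 40164, 41940 and 41287 with siNC. The lower FPKM of Krt7 comes with a long gene model: the values fit an exon length of 7055 bases, while the longest coding transcript in GENCODE M21 has 4094 bases. Over that length, the same reads give 405 to 409 FPKM with siSox9 and 316 to 320 FPKM with siNC. The fold between the groups does not depend on the length. A gene of the opposite strand, Gm671, overlaps Krt7, and whether strand was used in counting is not given in the sources used here.

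Krt80, a type II keratin on the - strand of chromosome 15 from 101349571 to 101370125, was the least abundant member tested. Its level was 27.0, 25.0 and 25.1 FPKM with siSox9 and 28.2, 26.4 and 27.1 FPKM with siNC. The siSox9 library of replicate 1 lay among the siNC libraries, so the groups overlapped. The log2 difference was -0.08 (SE 0.04, adjusted p = 0.179 in limma), with a 95% interval from 11.8% lower to 1.11% higher. The values fit an exon length of 1774 bases, while the coding transcripts of Krt80 in GENCODE M21 have 2811 to 3919 bases. Its FPKM therefore also rests on the gene model. Of the 50-base stretches in these transcripts, 3.90% occur, on either strand, in Gm35853 or Prdx6 as well. Gm35853 is a gene of the opposite strand that overlaps Krt80. Prdx6 was at 75.0 to 79.5 FPKM with siSox9 and 56.8 to 61.0 FPKM with siNC.

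Of the type I keratins, Krt18 was the most abundant and ranked 18 among all genes tested. It lies on the + strand of chromosome 15 from 102028216 to 102032026, 23.9 kb from Krt8, away from the other type I keratins on chromosome 11. Its level was 1231, 1239 and 1292 FPKM with siSox9 and 1155, 1240.5 and 1187 FPKM with siNC. The siNC library of replicate 2 lay inside the siSox9 range, and the means of 1254 ± 33.3 and 1194 ± 43.0 FPKM (SD, n = 3) were 1.05-fold apart. The log2 difference was 0.07 (SE 0.04, adjusted p = 0.222 in limma), with a 95% interval from 1.57% lower to 12.0% higher, and was 0.05 without siNC replicate 1. In limma voom on recovered reads with no minimum level, added after the data were seen, the same log2 difference of 0.07 was called (adjusted p = 0.0194), and over all alternatives the adjusted p ran from 0.0194 to 0.622.

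Krt19, the smallest keratin, lies on the - strand of chromosome 11 from 100140810 to 100148665. Its level was 283, 285 and 286 FPKM with siSox9 and 292, 296 and 292 FPKM with siNC. The 3 siSox9 libraries were all below the 3 siNC libraries, and the means were 284 ± 1.69 and 293 ± 2.15 FPKM (SD, n = 3). The log2 difference of -0.04 was not called (SE 0.03, adjusted p = 0.253 in limma), with a 95% interval from 6.95% lower to 1.26% higher. Krt20, on the - strand of chromosome 11 from 99428403 to 99438150, was at 38.7, 42.8 and 40.9 FPKM with siSox9 and at 41.1, 41.0 and 40.3 FPKM with siNC. The siNC libraries lay within the range of the siSox9 libraries, and the 95% interval of the difference ran from 6.28% lower to 6.86% higher (adjusted p = 0.987 in limma).

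**Figure D2:**
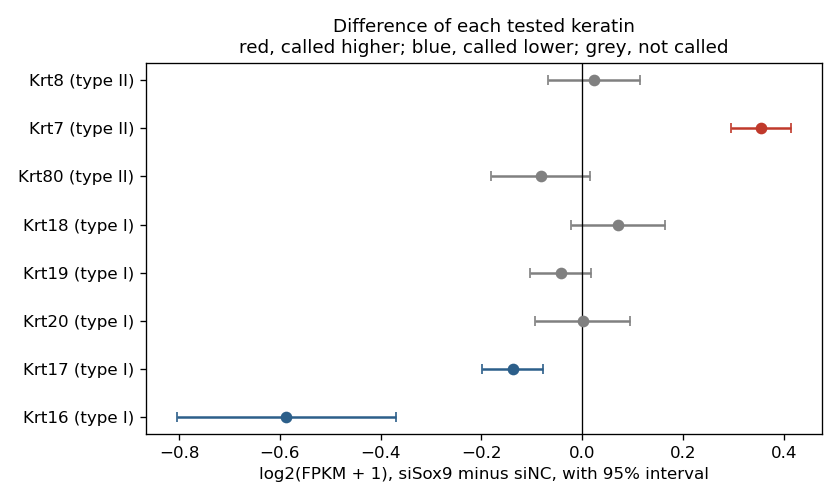
Difference in log2(FPKM + 1) between siSox9 and siNC (horizontal axis) for the 8 keratins tested, with its 95% interval from limma over 3 libraries per group. The interval of Krt7 runs from 0.30 to 0.41, the intervals of Krt17 and Krt16 lie below 0, and those of the other 5 cross 0.

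By level per length, the order of the members was Krt8, Krt18, Krt19, Krt7, Krt20 and Krt80 in each of the 6 libraries. Krt8 and Krt18 made up 81.6% to 82.4% of the summed FPKM of all keratins listed. The step from Krt19 to Krt7 rests on the gene model. If all reads of each came from its longest coding transcript, Krt7 would lie above Krt19 with siSox9 (405 to 409 against 333 to 337 FPKM). It would lie below Krt19 with siNC (316 to 320 against 343 to 348 FPKM). Reads of other Krt7 transcripts, such as a retained-intron transcript, were not told apart. Krt20 and Krt80, at 38.7 to 42.8 and 25.0 to 28.2 FPKM, did not overlap.

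The basal pair and Krt23 were close to the limit of detection. Krt5 took 5, 6 and 9 reads in the siSox9 libraries and 10, 5 and 6 in the siNC libraries. Krt14 took 1, 8 and 7 reads with siSox9 and 3, 5 and 6 with siNC. Krt23 took 6, 4 and 0 reads with siSox9 and 3, 3 and 1 with siNC, and the count of 0 in siSox9 replicate 3 allows up to 0.0802 FPKM, the value of 3 reads. The groups overlapped for each of these genes. Summed over a group, Krt5 had 20 reads with siSox9 (exact Poisson 95% interval 12.2 to 30.9) and 21 with siNC (13.0 to 32.1). Krt14 had 16 (9.15 to 26.0) and 14 (7.65 to 23.5), and Krt23 had 10 (4.80 to 18.4) and 7 (2.81 to 14.4). These intervals cover counting error only, and a small difference between the groups could not be detected at this depth. In the limma fit with no minimum level, none of these genes was called. The adjusted p was 0.938 for Krt5, 0.904 for Krt14 and 0.811 for Krt23 in that limma fit. Krt14 shares 14.4% of its 50-base stretches with Krt16 or Krt17, and Krt17 averaged 160.4 FPKM, so single reads listed under Krt14 are uncertain.

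**Figure D3:**
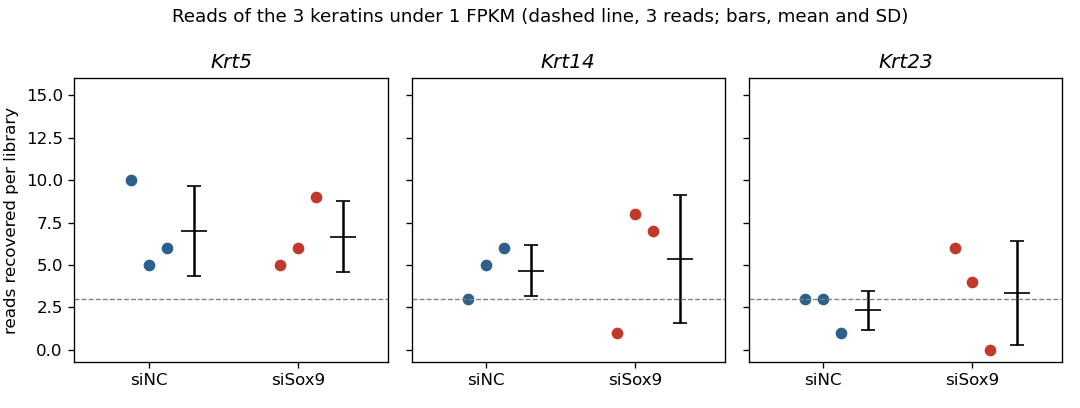
Reads recovered per library (vertical axis) for Krt5, Krt14 and Krt23, with 1 point per library, the mean and SD of each group, and a dashed line at 3 reads. No library has more than 10 reads of any of the 3 genes, and the groups overlap in each panel.

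The sum of the 9 members was 3914, 3908 and 4071 FPKM with siSox9 and 3729, 3931 and 3827 FPKM with siNC. The groups overlapped, with means of 3964 ± 92.7 and 3829 ± 101 FPKM (SD, n = 3), and the exact two-sided permutation test gave p = 0.3. With 3 libraries against 3 this test cannot go below 0.1. The overlap depended on the measure. All keratins listed made up 1.41% to 1.44% of the library FPKM with siSox9 and 1.30% to 1.39% with siNC. The mean log2(FPKM + 1) of the 9 members was 5.31 to 5.34 with siSox9 and 5.28 to 5.30 with siNC. The groups did not overlap on either measure (p = 0.1 in the same exact test for each). Neither measure shows a rise shared by all members. The summed FPKM of all keratins listed overlapped between the groups (p = 0.3 in the same exact test). The share of the library also rests on the total FPKM, which differed between libraries. The mean over the 9 members differed by 0.04 between the groups. In the limma fit with no minimum level, the log2 difference was 0.35 for Krt7 and -0.08 to 0.07 for the other members. The log2 difference of the summed members was 0.05, and 0.03 without siNC replicate 1 or without siSox9 replicate 3. The ratio of Krt8 to Krt18 was 1.71, 1.68 and 1.69 with siSox9 and 1.76, 1.73 and 1.77 with siNC. All siSox9 ratios were below all siNC ratios, by 0.05 on the log2 scale between the means (p = 0.1 in the same exact test, which is its lower limit).

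Some further ratios were chosen after the values were seen and carry no test. Krt7 stood at 0.836, 0.826 and 0.829 of the Krt19 level with siSox9 and at 0.628, 0.629 and 0.631 with siNC. Relative to Krt8 it stood at 0.113, 0.113 and 0.108 with siSox9 and at 0.0904, 0.0868 and 0.0878 with siNC. Its share of all keratin FPKM was 5.62% to 5.80% with siSox9 and 4.53% to 4.70% with siNC. The summed type II keratins were 1.36 to 1.38 times the type I keratins with siSox9 and 1.35 to 1.36 times with siNC.

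**Figure D4:**
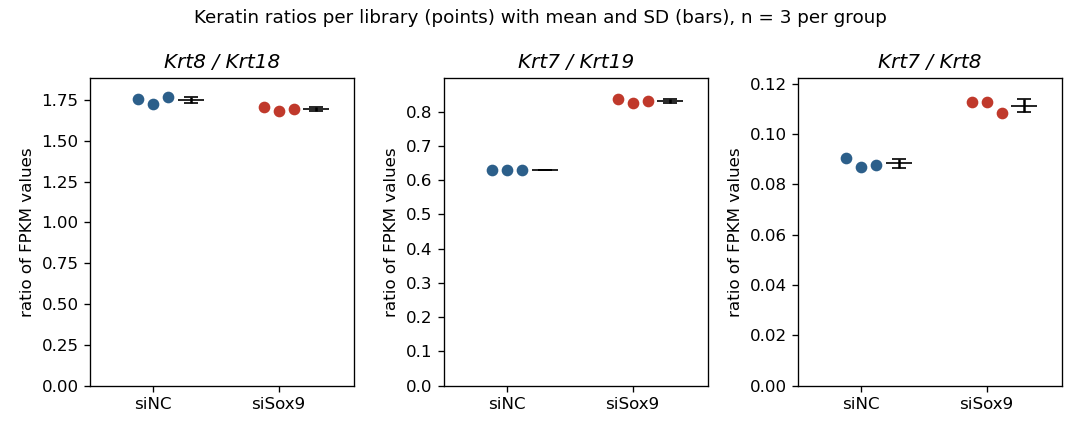
Ratios of FPKM values per library (vertical axes, each from 0) for Krt8 to Krt18, Krt7 to Krt19 and Krt7 to Krt8, with 1 point per library and the mean and SD of each group. The Krt7 to Krt19 ratio lies at 0.826 to 0.836 with siSox9 and 0.628 to 0.631 with siNC, and the Krt8 to Krt18 ratio at 1.68 to 1.71 and 1.73 to 1.77.

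Of the 31 keratins outside the members, 2 averaged 1 FPKM or more, and both fell with siSox9, beside 17.6% of all genes called lower. They are type I keratins known for their induction in wounded and hyperproliferative epithelium. Krt17, on chromosome 11, was at 154, 152 and 151 FPKM with siSox9 and at 167, 168 and 169 FPKM with siNC. The groups did not overlap, and the log2 difference was -0.14 (SE 0.03, adjusted p = 0.00727 in limma). On TPM values the difference was -0.11 and was not called (adjusted p = 0.117). Krt16 was at 0.720, 0.956 and 1.04 FPKM with siSox9 and at 1.62, 1.98 and 1.98 FPKM with siNC, from 29, 38 and 39 reads and 63, 75 and 77 reads. Its mean with siSox9 was 48.7% of that with siNC, and the log2 difference was -0.59 on the log2(FPKM + 1) scale (adjusted p = 0.00372 in limma) and -1.04 in limma voom. Krt16 shares 37.6% of its 50-base stretches with Gm11597, Krt14 or Krt17, so its reads are uncertain. The other 29 were under 1 FPKM, and 5 of them, Krt6a, Krt77, Krt81, Krt32 and Krt40, were at 0 in all libraries.

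By root mean square difference of centred log2(FPKM + 1) over the 6 libraries, the genes closest to Krt7 were Epha4 (0.0157), Psmd7 (0.0169) and Cdkn1a (0.0174). Cdkn1a, a cell cycle inhibitor, averaged 294 FPKM with siSox9 and 230 FPKM with siNC. The closest genes to Krt80 were Cyr61 (0.0144), Tmem125 (0.0146) and Kctd18 (0.0158), and those closest to Krt18 were Ppp6c (0.0105), Rpsa-ps10 (0.0105) and Dolk (0.0120). These likenesses are descriptions over 6 libraries that share 2 treatments.

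Keratin filaments end at desmosomes, which join cells, and at hemidesmosomes, which hold cells to the basement membrane, and the genes of these and related lists were counted in the same fit. Of 42 genes tested in 5 lists, 16 were called, beside 30.4% of all genes, and 11 were called without siSox9 replicate 1, beside 21.8% of all genes in that fit. Among the other intermediate filament genes, 6 of 16 were tested and 3 were called, each lower, with a median log2 difference of -0.14. They were Vim, the filament of mesenchymal and cultured cells (110 ± 2.39 against 129 ± 2.15 FPKM, SD, n = 3), and the nuclear lamins Lmnb1 (26.3 ± 1.74 against 33.8 ± 1.92) and Lmnb2 (8.22 ± 0.409 against 9.73 ± 0.588). Lmnb2 was not called without siSox9 replicate 1, siSox9 replicate 3 or siNC replicate 3 (adjusted p 0.0572 to 0.0688), nor with TPM or no minimum level.

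Among the desmosome and plakin genes, 14 of the 21 listed were tested, 3 were called higher and 2 lower, with a median of 0.00. Jup (plakoglobin) rose from 70.8 ± 3.10 to 83.2 ± 2.28 FPKM (SD, n = 3), Perp from 82.6 ± 0.854 to 95.1 ± 1.30 FPKM, and the plakin linker Dst from 9.20 ± 0.422 to 11.1 ± 0.427 FPKM. The desmosomal cadherin Dsg2 fell from 18.2 ± 0.135 to 14.6 ± 0.582 FPKM and the plaque protein Pkp3 from 16.8 ± 0.761 to 14.0 ± 0.364 FPKM. Dsp and Plec, which anchor keratins directly, were not called, at 28.7 against 28.8 FPKM and 51.1 against 50.7 FPKM.

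Among the 5 tested of 6 hemidesmosome genes, 1 was called higher and 2 lower, with a median of -0.01. The laminin chain Lamb3 rose to 56.4 from 51.6 FPKM. The tetraspanin Cd151 fell from 111 ± 1.23 to 88.9 ± 3.19 FPKM (SD, n = 3) and the integrin chain Itga6 from 18.9 to 17.3 FPKM. Lamb3 was called without siNC replicate 1, but not in the 5 fits that left out another library (adjusted p 0.0530 to 0.0837) or on TPM. Itga6 was not called in any of the 6 fits that left out 1 library (0.0571 to 0.104), nor with TPM, median centring, quantile normalization or no minimum level.

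Of 16 epithelial transcription factors, 7 were tested and 3 were called, each lower, beside 17.6% of all genes called lower. The median log2 difference of the 7 was -0.17. The other 4 were not called and their groups overlapped, with log2 differences of -0.17 (Klf5), -0.03 (Grhl2), -0.03 (Gata3) and 0.04 (Tfap2a). Elf3 fell from 11.2 ± 0.387 to 8.20 ± 0.585 FPKM (SD, n = 3), Ehf from 4.13 ± 0.342 to 3.13 ± 0.236 FPKM and Klf4 from 4.19 ± 0.461 to 3.16 ± 0.311 FPKM. Klf4 was not called without siSox9 replicate 1, siSox9 replicate 2, siNC replicate 1 or siNC replicate 3 (adjusted p 0.05515 to 0.0775), or with no minimum level. Of 10 keratin-binding and keratin-modifying proteins, 1 was called higher and 1 lower, with a median of -0.07. The 14-3-3 protein Ywhaz fell from 147 to 106 FPKM (log2 difference -0.47, SE 0.03). Dnajb6, a chaperone partner of Krt18, was at 23.5 against 21.3 FPKM and was called without siNC replicate 2, but not in the 5 fits that left out another library (0.0517 to 0.0893), nor with no minimum level. Hspb1, a small heat shock protein, was not called, and its siNC libraries were at 359, 543 and 524 FPKM.

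**Figure D5:**
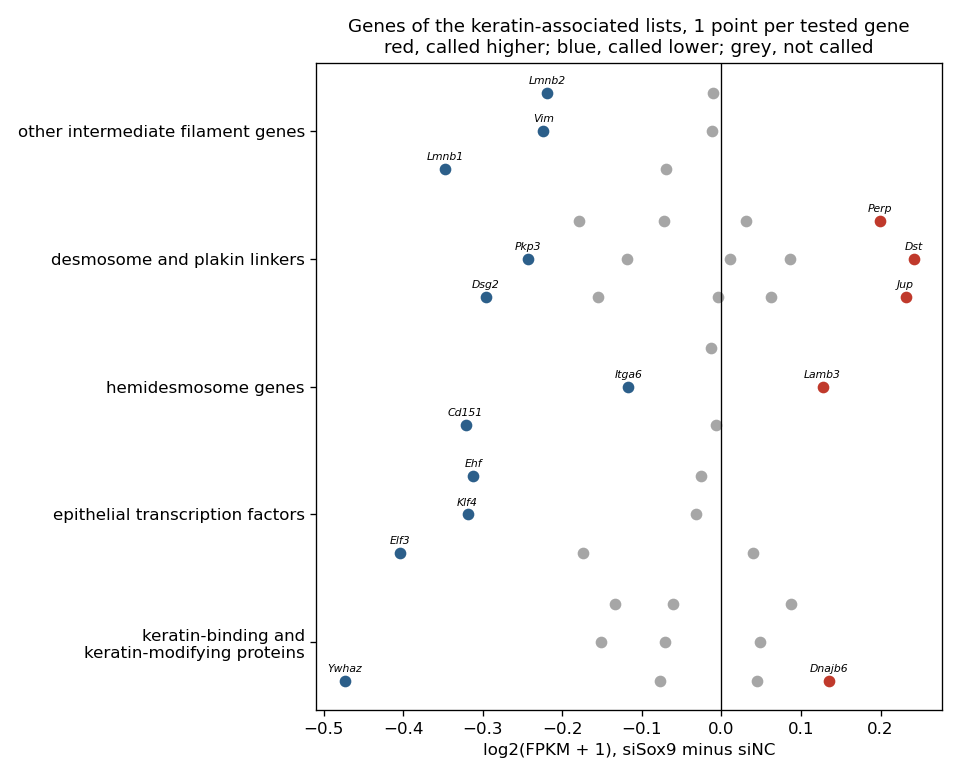
Difference in log2(FPKM + 1) between siSox9 and siNC (horizontal axis) for each tested gene of 5 lists of genes linked to keratins, with called genes named. Of the 42 genes, 5 were called higher and 11 lower, and the called other intermediate filament genes and transcription factors all lie below 0.

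Krt7 and Krt19 are also made by other cells that a kidney culture can hold, so markers of such cells were read in the same libraries. In bulk samples, more cells of a type and more RNA per cell cannot be told apart. The 4 mesothelial markers summed to 81.0 to 82.9 FPKM with siSox9 and 46.4 to 52.5 FPKM with siNC. Nearly all of that was Msln, which rose from 47.7 ± 3.01 to 79.8 ± 0.852 FPKM (SD, n = 3), the 1 called of 2 tested. Lrrn4 was at or near 0. Wt1 lay under the minimum and was not tested. It was lower with siSox9, at 0.634 ± 0.116 against 0.804 ± 0.111 FPKM (SD, n = 3). Its groups did not overlap, which also held for 46.3% of all genes tested. The 5 urothelial markers listed summed to 2.41 to 2.81 FPKM with siSox9 and 1.46 to 1.99 FPKM with siNC, with Upk1b and Trp63 at or near 0 and Upk3b, the most abundant, not called. Upk1a and Upk2 lay under the minimum and were not tested. They were at 0.694 ± 0.0958 against 0.429 ± 0.0531 FPKM and 0.407 ± 0.0162 against 0.151 ± 0.101 FPKM (SD, n = 3). Their groups did not overlap, beside the same 46.3% of all genes tested. Upk2 had 11 reads in each siSox9 library and 1, 6 and 5 reads in the siNC libraries. The 8 collecting duct markers summed to 21.5 to 22.9 FPKM and 22.2 to 22.7 FPKM, with Hsd11b2 the most abundant, and Aqp2 at or near 0. Hsd11b2 and Gata3 were lower with siSox9 and Scnn1a was higher, and none of them was called. Scnn1b and Scnn1g lay under the minimum and were not tested. They were at 0.768 ± 0.0460 against 0.644 ± 0.0808 FPKM and 0.658 ± 0.136 against 0.466 ± 0.0961 FPKM (SD, n = 3). Of these genes, only Scnn1b had groups that did not overlap, beside 46.3% of all genes tested. The part of all these cell types in the Krt7 result was not tested.

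Of the 11 tubule epithelial markers, 6 were tested and Cdh16 was called, beside 30.4% of all genes tested. Cdh16 was at 130 ± 0.424 with siSox9 against 101 ± 2.84 FPKM with siNC (SD, n = 3). Of the others tested, Epcam, Cdh1, Pax8 and Pax2 were lower with siSox9 and Lrp2 was higher, and none was called. The 11 markers summed to 445 to 458 FPKM with siSox9 and 423 to 440.1 FPKM with siNC, with Cdh1 the most abundant. The 5 macrophage markers summed to 103 to 114 FPKM with siSox9 and 92.2 to 98.7 FPKM with siNC. Of the 4 tested, Lyz2, the most abundant, was the 1 called, at 83.4 ± 3.91 against 71.9 ± 3.78 FPKM. Cd68 and Adgre1 were higher with siSox9 and Csf1r was lower, with overlapping groups, and none of these was called. Ptprc, under the minimum, was at 0.653 with siSox9 against 0.724 FPKM with siNC. Fibroblast markers summed to 6.24 to 7.76 and 7.72 to 8.79 FPKM, mostly Col1a1, with Dcn at or near 0 and the 1 tested gene not called. Endothelial markers summed to 2.91 to 3.10 and 3.22 to 4.12 FPKM, with Cdh5, the most abundant and the 1 gene tested, not called. The others were under the minimum on average. Emcn was lower with siSox9, at 0.664 ± 0.0527 against 1.08 ± 0.0718 FPKM (SD, n = 3), as was Pecam1, at 0.570 against 0.677 FPKM. Kdr and Tek were higher with siSox9, at 0.509 against 0.418 FPKM and 0.122 against 0.0889 FPKM. Podocyte markers summed to 12.5 to 13.9 and 18.7 to 19.5 FPKM, with Podxl, the most abundant, and Synpo called lower and Nphs1 at 0 in every library. The part of these cell types in the keratin results was not tested.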

How the data were processed

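RNA-Seq was performed on 6 libraries of mouse primary renal TECs, 3 with siSox9 and 3 with siNC, all after H/R, by Illumina sequencing. The deposited table gives FPKM values by the authors for each gene, with no further scaling between libraries. The submitters' processing notes name Bowtie2 2.2.3, HISAT2 2.1.0 and TopHat2 without a role, and mm9, but the gene positions in the table are those of GRCm38: 93.3% equal GENCODE M21. Which program counted reads is not given in the sources used here. The siSox9 columns are named for an siRNA other than the control, and siSox9 is the only other siRNA in the labels.

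Whole reads were recovered from the FPKM values with M21 exon lengths: 27948 genes gave whole numbers in every library to within 0.02 reads, and 1046 more, Krt7, Krt8, Krt18, Krt80 and Krt5 among them, with a length found by search. The test was limma (version 3.58.1, R 4.3.3), with a mean-variance trend in eBayes and without a replicate block. It was run on log2(FPKM + 1), which understates changes of low genes, for the 12009 genes that averaged 1 FPKM or more. Sums and the Krt8 to Krt18 ratio were tested with exact permutations in scipy 1.17.1. So were the keratin share of each library and the mean log2(FPKM + 1) of the members. The limma step was checked on simulated data. Replicate numbers were taken from the labels.

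The members and lists were chosen with earlier results of these data known. Genes named were all members, other keratins of at least 1 FPKM, Sox9, in each list up to 3 called genes per direction with the largest change, the most abundant and near-absent markers, and the 3 genes most like each of the 3 members with the largest differences. Dsp, Plec, Hspb1, Klf5, Grhl2, Gata3, Tfap2a, further cell type markers, Krt8-ps and Prdx6 were added after their values were seen. Alternatives were a pseudocount of 0.1, no minimum, a 5 FPKM minimum, quantile-normalized or median-centred values, TPM, a replicate block, limma voom on recovered reads and leaving out each library. Tables and plots were made in Python 3.11.15 with pandas 2.3.3, numpy 2.4.6 and matplotlib 3.10.9. Eppk1, Upk3a and Lum, and the promoters of Krt19 and Krt80, were not analysed here, and 3 further genes of the lists are not reported here and were left out of the counts and sums.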

Additional observations from a re-analysis of the deposited data

How the results depend on the processing

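Krt7 was called under all 15 alternatives (log2 difference 0.33 to 0.38, adjusted p 2.8e-14 to 0.00224 in limma), and Sox9 was lower and called under all 15 (-1.55 to -1.42). The number of members called was 1 under every alternative but limma voom on recovered reads with no minimum level, where it was 2. Leaving out 1 library gave 1 member called each time. Of the keratins outside the members, 1 was called with a minimum of 5 FPKM, which leaves only Krt17 in the test, and 1 on TPM values, instead of 2; the cause was not tested for TPM. Leaving out 1 library gave 11 to 15 called genes in the 5 keratin-linked lists instead of 16, and the other alternatives gave 12 to 20. The Krt20 difference of 0.00 became -0.01 (-0.0094) with quantile normalization and ran from -0.03 (-0.0331) to 0.04 (0.0378) when 1 library was left out. The log2 difference of the summed members was 0.05 and ran from 0.03 to 0.08 over its alternatives, and that of the Krt8 to Krt18 ratio from -0.06 to -0.04. Over all genes, 3650 were called, against 2424 without siSox9 replicate 2.

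Same-numbered libraries did not deviate together (correlations of 0.06, -0.05 and 0.01), so the numbers were not taken as pairs. With the replicate block, 3262 genes were called, 1 member, 2 other keratins and 15 list genes, while Itga6 and Dnajb6 were not called (adjusted p of 0.0572 and 0.0508 in limma); the Sox9 difference was -1.45, that of the summed members 0.05 and that of the Krt8 to Krt18 ratio -0.05. The 3 libraries per group limit how small a difference can be called (the 95% interval of Krt8 spans -4.57% to 8.23%), and at this depth 3 reads of Krt5, Krt14 or Krt23 are worth 0.0532 to 0.0802 FPKM.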
